A study of Mus musculus with 24 samples.

Results

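Nuclear oxidative phosphorylation genes encode the mitochondrial proteins that are made in the cytosol and imported to build the respiratory chain. They were taken from a data set on mouse lung as all genes whose single annotated symbol begins with Ndufa, Ndufb, Ndufc, Ndufs, Ndufv, Uqcr, Cox4, Cox5, Cox6, Cox7, Cox8 or Atp5, or is Sdha, Sdhb, Sdhc, Sdhd, Cyc1 or Cycs. The rule found 86 of 12393 named genes, and 85 of them were bright enough to be tested among 8280 genes. Each gene was represented by its brightest probe set, a group of short oligonucleotides on the array that bind one transcript. Whole-lung RNA from untreated male mice aged 8 weeks (Jackson Lab) was measured on 24 Affymetrix Mouse 430A arrays, 2 for each of 12 strains. Both parents of the cross were inbred, C57BL/6J (B6 here) and C3H/HeJ (C3 here). Another group was their hybrid (F1), and 9 strains had been inbred from the cross to recombinant inbred (RI) lines: BXH2, BXH4, BXH6, BXH7, BXH8, BXH9, BXH10, BXH14 and BXH19. The labels name no transgene, deletion or treatment in any group. The labels count each sample as a single one but do not state that both samples of a strain are separate animals, so the p-values cover no more than the spread between these arrays, part of which may be technical.

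Oxidative phosphorylation transfers electrons from NADH through complex I, or from succinate through complex II, to ubiquinone, then through complex III and the mobile carrier cytochrome c to complex IV, which reduces oxygen. Complexes I, III and IV pump protons across the inner mitochondrial membrane, and complex V, the ATP synthase, uses the returning protons to make ATP. The core of several complexes is encoded in the mitochondrion itself, complex II is wholly nuclear, and some subunits of complex IV exist as a general isoform and as an isoform of heart, skeletal muscle and brown fat. Lung tissue mixes many cell types, and the walls of large pulmonary veins in mice carry cardiac muscle.

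The tested members held 33 subunits of complex I, 5 complex I assembly factors (Ndufaf1, Ndufaf3, Ndufaf4, Ndufaf5 and Ndufaf7, which help to build the complex without staying in it), 4 subunits of complex II, 9 of complex III, cytochrome c (Cycs), 16 of complex IV and 17 of complex V. Ndufa4 was counted in complex IV, to which its protein belongs in spite of its name. The 86th member, Cox7c of complex IV, had a mean signal of 94.8, below the limit of 169 set by the brightest 60% of probe sets, and was not tested. Ndufb4, Ndufs6 and Ndufa11 were on probe sets annotated with several symbols and were therefore not members.

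Promoters of members are shown because members of all complexes except II were lower together in the same strain below, and because Cox7a1 and Cox8b had the widest ranges between strains. RefSeq (assembly GRCm38.p6) gave a window from 250 bases before to 50 after the start of transcription for 71 of the 86 members. Cycs (chr6:50566520-50566819, minus strand) and Uqcr11 (chr10:80406772-80407071, minus strand) have capitals at GCATGCGC, the core letters recognised by the factor NRF1, and Uqcr11 also at CCGGAAG, letters of ETS factors such as GABP. Cox7a1 (chr7:30183921-30184220, plus strand) has no capitals, and Cox8b (chr7:140900397-140900696, minus strand) has capitals at TATAAA, the TATA box. CCAAT, which Cycs and Cox7a1 also hold, was left in lower case.
Cycs: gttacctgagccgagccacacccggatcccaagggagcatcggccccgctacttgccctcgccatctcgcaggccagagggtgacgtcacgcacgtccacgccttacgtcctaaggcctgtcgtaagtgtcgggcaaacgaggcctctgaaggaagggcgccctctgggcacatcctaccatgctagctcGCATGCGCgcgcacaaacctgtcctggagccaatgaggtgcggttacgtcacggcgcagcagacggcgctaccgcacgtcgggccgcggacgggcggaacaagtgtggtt
Uqcr11: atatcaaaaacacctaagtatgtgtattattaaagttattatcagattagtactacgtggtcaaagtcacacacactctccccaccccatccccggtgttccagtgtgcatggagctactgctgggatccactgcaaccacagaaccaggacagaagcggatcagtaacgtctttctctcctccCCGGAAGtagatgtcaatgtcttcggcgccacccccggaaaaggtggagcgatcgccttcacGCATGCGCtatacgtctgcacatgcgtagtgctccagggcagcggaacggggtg
Cox7a1: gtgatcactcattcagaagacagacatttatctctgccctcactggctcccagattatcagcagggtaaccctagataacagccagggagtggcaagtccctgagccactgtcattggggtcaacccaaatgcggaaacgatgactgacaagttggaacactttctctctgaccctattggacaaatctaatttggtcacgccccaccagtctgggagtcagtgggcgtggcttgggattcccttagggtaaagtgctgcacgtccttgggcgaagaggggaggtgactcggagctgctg
Cox8b: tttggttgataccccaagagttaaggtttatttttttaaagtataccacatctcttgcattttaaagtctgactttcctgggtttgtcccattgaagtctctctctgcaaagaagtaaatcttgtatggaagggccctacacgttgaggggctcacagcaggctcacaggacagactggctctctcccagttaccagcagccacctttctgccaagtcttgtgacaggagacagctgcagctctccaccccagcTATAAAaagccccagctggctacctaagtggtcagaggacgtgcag
GCATGCGC was found, on either strand, in 12 of the 71 member promoters (16.9%), against 5.57% of the promoters of 6694 tested genes and 2.8% of 27025 promoters in all. CCGGAAG was in 17 (23.9%, against 18.4% and 9.12%), and AAGGTCA, letters bound by the oestrogen-related receptors, in 7 (9.86%, against 3.05% and 4.66%). TATAAA was in 7 (9.86%, against 7.96% and 14.2%), CCAAT in 29 (40.8%, against 37.6% and 37.9%) and GGGGCGG, letters of Sp1, in 21 (29.6%, against 44.8% and 23.4%). Of the 28 members with a window that were lower in BXH4 (below), 4 held GCATGCGC and 8 held CCGGAAG, and of the other 43 members 8 and 9 did. A match is a description of letters in this window, overlaps between motifs were allowed, and no binding was measured.

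The depositors' scaling left every array with nearly the same mean signal, and array medians lay between 239 and 269.6. Markers of lung cells were bright on all arrays, with Sftpc of alveolar type 2 cells at 9579 to 20160, Scgb1a1 of club cells at 11223 to 18168 and Ager of alveolar type 1 cells at 5527 to 11118. Muscle markers varied widely between arrays, and the mean deviation of 10 tested skeletal muscle markers from their means ran from -2.57 (BXH19 replicate 2) to 2.59 (BXH9 replicate 2) on the log2 scale. That of 8 heart muscle markers ran from -0.68 (BXH4 replicate 1) to 1.77 (BXH9 replicate 1). Ucp1, the uncoupling protein that defines brown fat, was listed at a signal of 13.2 or less on 19 arrays but at 1831 on F1 replicate 1, 843 and 170 on the BXH2 arrays (replicates 2 and 1), 248 on BXH10 replicate 1 and 116 on BXH14 replicate 2. In such bulk tissue, fewer cells of a type and less RNA per cell cannot be told apart.

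Of the 85 tested members, 15 (17.6%) differed between the 12 strains (limma's moderated F test on log2(signal + 16), Benjamini-Hochberg adjusted p below 0.05), beside 10.5% of all genes tested. Between the 9 RI strains 14 members differed, beside 9.32% of all genes. By complex, 5 of 33 members of complex I differed between the 12 strains, 0 of 5 assembly factors, 0 of 4 in complex II, 3 of 9 in complex III, Cycs, 4 of 16 in complex IV and 2 of 17 in complex V. At an unadjusted p below 0.05 there were 24, 0, 0, 6, 1, 8 and 8, together 47 of 85, beside 25.6% of all genes tested. The range between the highest and the lowest strain mean had a median of 0.57 over the members and 0.54 over all genes on the log2 scale. It was 0.58 in complex I, 0.47 in complex II, 0.85 in complex III, 0.60 in complex IV and 0.54 in complex V. BXH4 had the lowest strain mean for 53 of the 85 members (62.4%, against 15.1% of all genes) and BXH9 the highest for 37 (43.5%, against 9.84%), while F1 had the highest for 20 (23.5%, against 5.81%).

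**Figure D1:**
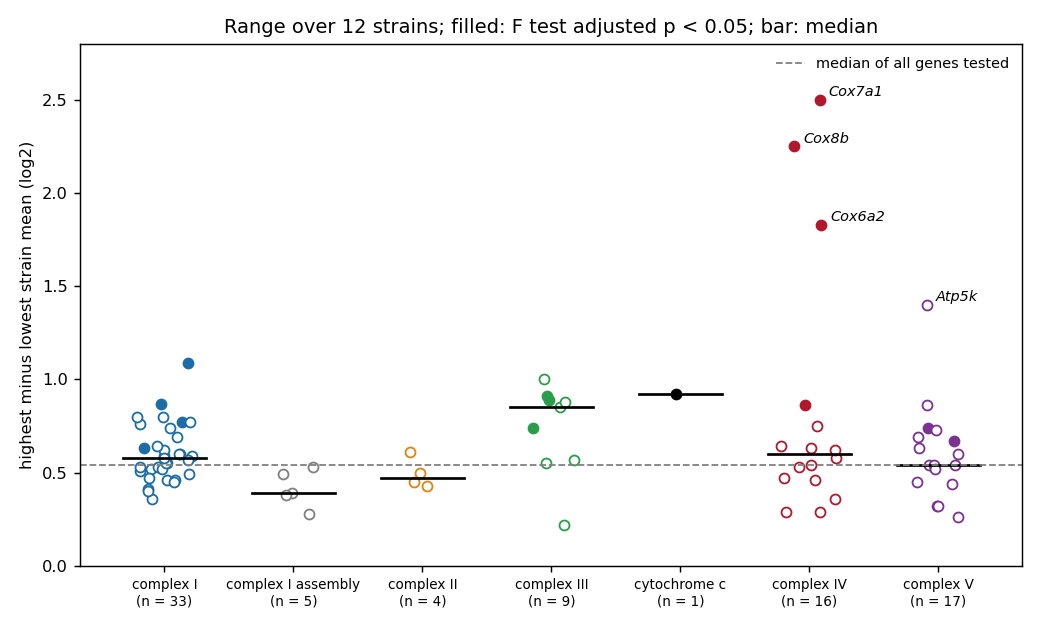
Range over 12 strains (highest minus lowest strain mean of log2(signal + 16)) of each tested member by complex; each point is a gene, filled where the F test passed, and the black bar is the median of the complex. Cox7a1 (2.50), Cox8b (2.25) and Cox6a2 (1.83) lie above all other members, and most others lie near the dashed median of all genes (0.54).

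The widest ranges belonged to 3 isoforms of complex IV that are typical of heart, skeletal muscle and, for Cox7a1 and Cox8b, brown fat. Cox7a1, which replaces Cox7a2 in muscle, had signals of 543 and 293 in F1, 183 and 159.7 in B6, and 229.7 and 179.6 in C3. In the RI strains it had 479 and 345 in BXH2, 114 and 82.8 in BXH4, 186 and 151 in BXH6, 200.4 and 267 in BXH7, 411 and 261 in BXH8, 673 and 586 in BXH9, 217 and 145 in BXH10, 238 and 282 in BXH14, and 142 and 143 in BXH19. Both BXH4 arrays lay below all 22 others, and the BXH9 arrays were the highest of the 24 (strain range 2.50, F test, adjusted p = 2e-04 by limma). Cox8b, which replaces Cox8a in muscle, had 1524 and 424 in F1, 294 and 284 in B6, and 371 and 359 in C3. Its RI signals were 895 and 699 in BXH2, 208 and 174 in BXH4, 185 and 280 in BXH6, 281 and 253 in BXH7, 729 and 644 in BXH8, 847 and 1101 in BXH9, 392 and 274 in BXH10, 241 and 452 in BXH14, and 283 and 417 in BXH19. F1 replicate 1 was the highest array while its partner lay far below it, and BXH6 replicate 1 overlapped with the low BXH4 arrays (range 2.25, F test, adjusted p = 0.00353 by limma). Cox6a2, which replaces Cox6a1 in muscle, had 1567 and 1112 in F1, 1094 and 1140.2 in B6, and 1225 and 891 in C3. In the RI strains its signals were 2251 and 1708 in BXH2, 746 and 837 in BXH4, 1307 and 1066 in BXH6, 1119.5 and 1514 in BXH7, 1827 and 1271 in BXH8, 2793 and 2912 in BXH9, 723 and 892 in BXH10, 894 and 1162 in BXH14, and 862 and 1039.8 in BXH19. Both BXH9 arrays were above all others, followed by BXH2 replicate 1, and BXH10 and BXH4 held the lowest 3 arrays (range 1.83, F test, adjusted p = 0.000347 by limma).

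Their general partners varied less in range, although differences between partners were not tested. Cox7a2 spanned signals of 4652 to 7122 (range of strain means 0.47, F test, adjusted p = 0.352 by limma), Cox6a1 4152 to 5690 (0.29, 0.609) and Cox8a 2402 to 4682 (0.46, 0.508). Cox4i1, the general form of the subunit that binds ATP, had a range of 0.75 and Cox4i2, its lung and hypoxia form, 0.54 (F test, adjusted p = 0.153 and 0.888 by limma). The general Cox6b1 had 0.63 and the testis form Cox6b2 0.29 (0.126 and 0.966). Ndufa4 had a range of 0.62 and Cox7a2l, which helps to join complexes III and IV, 0.53 (0.115 and 0.947). None of these 6 genes passed.

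**Figure D2:**
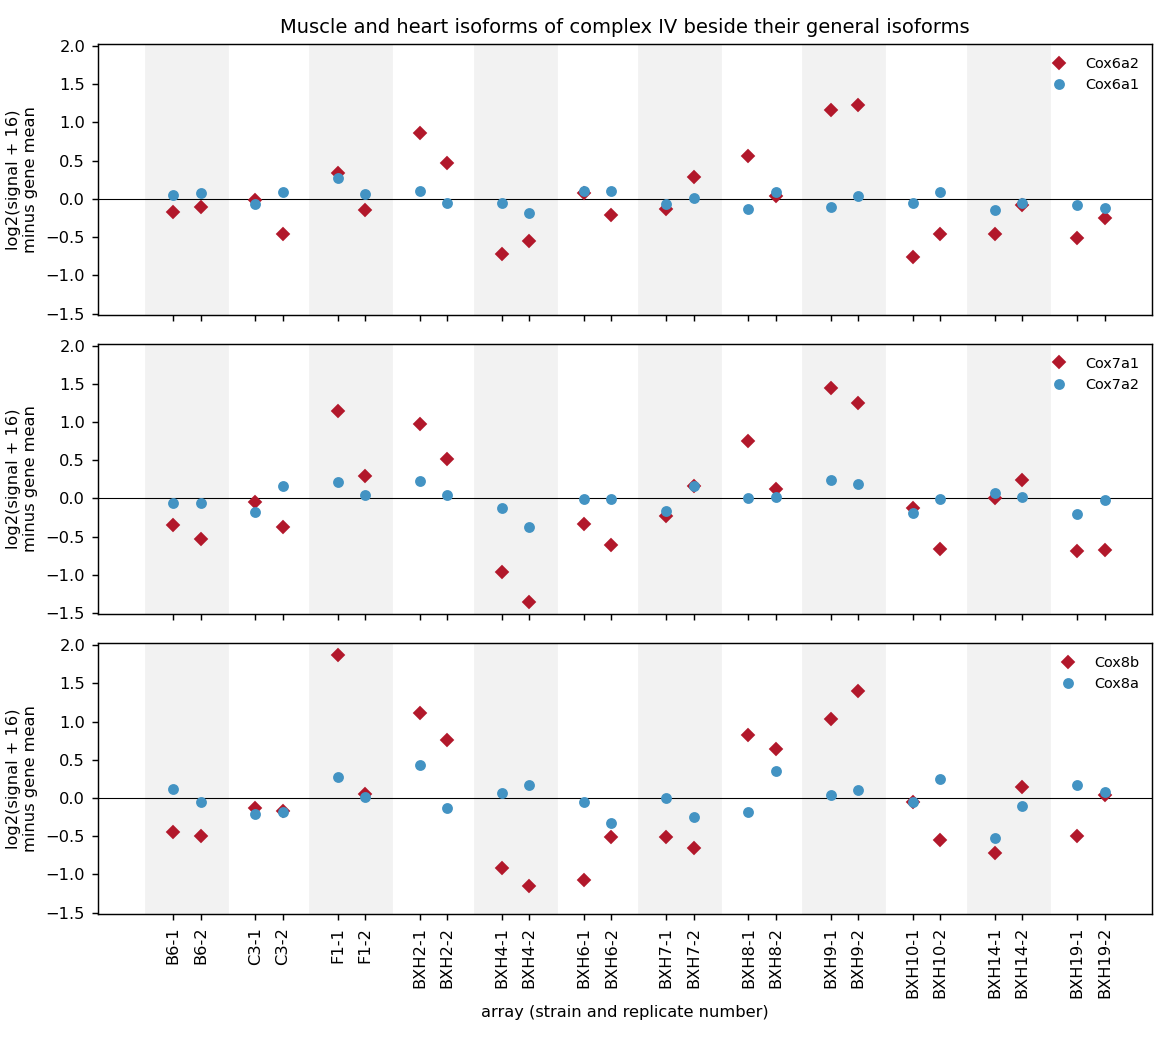
Deviation of log2(signal + 16) from each gene's mean over 24 arrays for the muscle and heart isoforms (diamonds) and general isoforms (circles) of Cox6a, Cox7a and Cox8, by array. The diamonds of BXH9 lie high and those of BXH4 low in all 3 panels, F1 replicate 1 is high for Cox7a1 and Cox8b, and the circles stay nearer 0.

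The muscle isoforms and markers of other tissues were high or low together on some arrays but not on others. Their mean deviation was 1.21 and 1.29 on the BXH9 arrays, where the skeletal muscle list stood at 1.85 and 2.59 and the heart muscle list at 1.77 and -0.09. On the BXH4 arrays it was -0.86 and -1.02, with the skeletal muscle list at 0.25 and -2.52 and the heart muscle list at -0.68 and -0.45. On the BXH8 arrays it was 0.71 and 0.27, with skeletal muscle at 2.21 and 1.91. On F1 replicate 1 it was 1.12, where skeletal muscle stood at 0.85 and Ucp1 was brightest, and on F1 replicate 2 it was 0.07 with skeletal muscle at 1.10. B6 had skeletal muscle at 1.51 and 1.48 with the isoforms at -0.32 and -0.38, and its heart muscle list had a strain mean of -0.36. As strain means, the heart muscle list and the isoforms stood at 0.51 and 0.78 in BXH2 and 0.38 and 0.49 in BXH8. They stood at -0.18 and -0.20 in C3, -0.33 and -0.44 in BXH6, -0.35 and -0.43 in BXH10, and -0.41 and -0.43 in BXH19. Their signs differed in BXH7 (0.13 and -0.18) and BXH14 (0.05 and -0.15). With the mean of the skeletal muscle list as a covariate, Cox7a1 and Cox6a2 still differed between strains, and Cox8b had an adjusted p of 0.054. With the heart muscle list it had 0.0674. How much of these isoforms' signal came from other tissue was not tested.

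**Figure D3:**
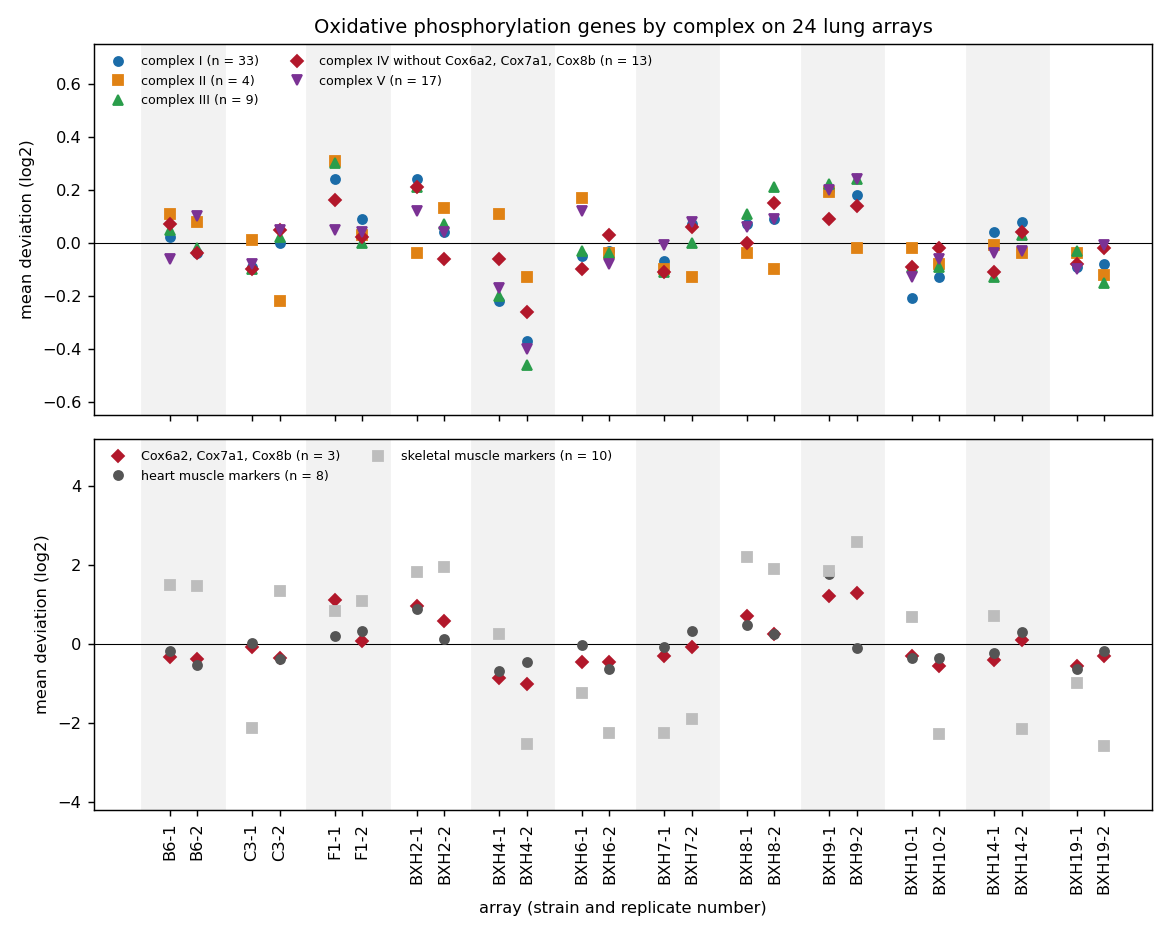
Mean deviation of log2(signal + 16) from each gene's mean over 24 arrays, by array: complexes I, II, III, V and IV without its muscle isoforms (top), and the 3 muscle isoforms with heart and skeletal muscle markers (bottom, wider axis); n is the number of genes. Complexes I, III and V are lowest on BXH4 replicate 2 (-0.37, -0.46 and -0.40), where complex II stands at -0.13.

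Among the other members that differed between the 12 strains, Cox5a, a matrix-facing subunit of complex IV, had the smallest p. Its signals were 3848 and 3459.6 in F1, 3114 and 3205 in B6, and 3094 and 3817 in C3, and 3478 and 3373 in BXH2, 2477 and 2261 in BXH4, 3396 and 2989.5 in BXH6, 3429.6 and 3514 in BXH7, 3273 and 3141 in BXH8, 4325 and 4310.2 in BXH9, 2709 and 2531 in BXH10, 3654 and 3340.2 in BXH14, and 3074 and 2900.2 in BXH19. BXH4 lay below and BXH9 above all other arrays (range 0.86, F test, adjusted p = 0.00271 by limma). Cycs, the mobile carrier, had 3581 and 2729 in F1, 2423 and 2188 in B6, and 2432 and 2446 in C3, and 3219 and 2399 in BXH2, 2171 and 1788 in BXH4, 2521 and 2568 in BXH6, 2406 and 2540 in BXH7, 2933 and 2764 in BXH8, 3825 and 3647 in BXH9, 2315 and 1874 in BXH10, 3066 and 2649 in BXH14, and 2411 and 2188 in BXH19. BXH9 was again the highest strain and BXH4 the lowest, although BXH4 replicate 1 lay above the lower of the BXH10 arrays (range 0.92, F test, adjusted p = 0.0132).

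In complex I, Ndufab1, the mitochondrial acyl carrier protein, Ndufa12, Ndufs3, a core subunit, Ndufc2 and Ndufb2 differed. Ndufab1 had 1264 and 1278 in F1, 1046 and 987 in B6, and 928 and 1039.7 in C3, and 1177 and 946 in BXH2, 764 and 716 in BXH4, 1048 and 1133 in BXH6, 901 and 1068 in BXH7, 1215 and 1302 in BXH8, 1202 and 1239 in BXH9, 877 and 821 in BXH10, 1205 and 1229 in BXH14, and 1047 and 1014 in BXH19. Its BXH4 arrays were the lowest of all 24, those of BXH10 followed, and F1, BXH8, BXH9 and BXH14 were high (range 0.77, F test, adjusted p = 0.00356 by limma). Ndufa12, an accessory subunit late in assembly, did not follow this order. Its signals were 2177 and 1771 in F1, 2017 and 1814 in B6, and 1333 and 1624 in C3, and 2922 and 1953 in BXH2, 1679 and 1642 in BXH4, 1416 and 1653 in BXH6, 1445 and 1669 in BXH7, 2181 and 1999 in BXH8, 1810 and 1923 in BXH9, 1344 and 1535 in BXH10, 2442 and 2209 in BXH14, and 1317 and 1277 in BXH19. BXH2 and BXH14 were high, and C3, BXH6, BXH7, BXH10 and BXH19 were low without overlapping B6 (range 0.87, F test, adjusted p = 0.00928). Of its other probe sets, one gave a range of 1.10 (F test, adjusted p = 0.00557 over all probe sets by limma) and the other 0.70 (0.357). Ndufs3 (range 0.63, F test, adjusted p = 0.0304) was highest in F1, at 1542 and 1195, and lowest in BXH10, at 871 and 878. Ndufc2 (0.55, 0.038) and Ndufb2 (1.09, 0.046) were lowest in BXH4, where Ndufb2 had 1222 and 598 on arrays that differed from each other.

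In complex III, Uqcr11, the smallest subunit, had 2014 and 1993 in F1, 2002 and 1850.3 in B6, and 1397 and 1669.8 in C3, and 2227 and 1907 in BXH2, 1213 and 1008 in BXH4, 1709 and 1522 in BXH6, 1574 and 1487 in BXH7, 1627 and 2191 in BXH8, 1649 and 2036 in BXH9, 1384 and 1541 in BXH10, 1502 and 1763 in BXH14, and 1517 and 1445 in BXH19. BXH4 lay below all other arrays, and C3 lay below B6 (range 0.89, F test, adjusted p = 0.0151 by limma). Uqcrfs1, the Rieske iron-sulfur protein (range 0.74, F test, adjusted p = 0.0252), and Uqcrq (0.91, 0.0313) differed as well. These 2 genes had their highest strain mean in BXH9, unlike Uqcr11, and their lowest in BXH4. Uqcrb had the narrowest range of all members, 0.22, at signals of 7084 to 10024. Cyc1, cytochrome c1, had a range of 0.85 (F test, adjusted p = 0.0629). In complex V, Atp5j2 (range 0.74, F test, adjusted p = 0.0212), a subunit of the membrane part, and Atp5o (0.67, 0.0136), of the peripheral stalk, differed. The catalytic head subunits Atp5a1 (alpha, range 0.26) and Atp5b (beta, 0.32) had adjusted p = 0.841 and 0.453 in limma's F test. Atp5k spanned 1634 to 5561 with a range of 1.40 (0.0762). Its further probe sets passed (F test, adjusted p = 0.0179 and 0.0282 over all probe sets by limma). In BXH4 minus the other RI strains its probe sets stood at -0.77, -0.72 and -0.74, but they disagreed in F1 (below).

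Leaving out each of the 24 arrays in turn never ended the calls of Cox7a1, Cox6a2, Cox5a, Cox8b, Ndufab1, Ndufa12 and Atp5o. It ended the calls of Uqcr11 and Atp5j2 without BXH4 replicate 2 (adjusted p = 0.0765 and 0.0906), of Cycs without BXH9 replicate 1 (0.0577), of Uqcrfs1 in 3 fits, Uqcrq in 7, Ndufs3 in 10, Ndufc2 in 13 and Ndufb2 in 21, with adjusted p up to 0.0907. Over the 9 RI strains the count fell from 14 to 7 without BXH4 replicate 2 and to 9 without BXH9 replicate 1. Using the mean of a gene's probe sets ended the calls of Ndufab1 (0.419), Ndufa12 (0.0502) and Uqcrq (0.924). Of the 15 members, 9 had 12 further probe sets, of which 2 passed limma's F test, beside 9.4% of all probe sets. The further probe sets of Cox5a did not pass (F test, adjusted p = 0.0704 and 0.0853 by limma).

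Between the progenitors no member passed the test. In C3 minus B6, 0 of 85 members passed, beside 1.67% of all genes, and 5 had an unadjusted p below 0.05, all of them with lower values in C3, beside 9.34% of all genes. The median difference of the members was -0.03 and that of all genes 0.00. The smallest p belonged to Cox8c, a testis form of subunit 8, with 912 and 684 in B6 and 508 and 541 in C3 (log2 difference -0.58, SE 0.19, adjusted p = 0.177 by limma). Sdha, the flavoprotein of complex II that oxidises succinate, had 2580.1 and 2622 in B6 and 1954 and 1892 in C3 (-0.43, SE 0.16, adjusted p = 0.294). Ndufb2 had 1653 and 1579 in B6 and 1220 and 1011 in C3 (-0.53, SE 0.23, adjusted p = 0.449). For these genes both C3 arrays lay below both B6 arrays on the brightest probe set, but none passed. A second probe set gave smaller differences, -0.10 for Sdha and -0.19 for Ndufb2.

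In F1 minus the mean of its progenitors, 0 members passed on their brightest probe set, beside 0.0242% of all genes. At an unadjusted p below 0.05 there were 18 of 85 members, 16 with higher and 2 with lower values in F1, beside 8.16% of all genes. The median difference was 0.18, with 73 members above 0, whereas all genes had a median of -0.02. By complex the medians were 0.20 in I, 0.17 in II, 0.20 in III, 0.18 in IV and 0.07 in V. Ndufa6, an accessory subunit of complex I, had 1991 and 1895 in F1, 1413 and 1462 in B6 and 1422 and 1259 in C3, so that F1 did not overlap with either progenitor (log2 difference 0.48, SE 0.12, adjusted p = 0.21 by limma). Cox7a1 stood at 1.04 (SE 0.24, adjusted p = 0.21) and Ndufs3 at 0.40 (SE 0.10, adjusted p = 0.263). The hybrid's arrays differed from each other over the members, with a mean deviation of 0.22 on replicate 1, the array on which Ucp1 stood at 1831 and Cidea, another brown fat gene, at 1120, and of 0.05 on replicate 2. In the same comparison all 8 heart muscle markers (median 0.57) and all 10 tested skeletal muscle markers (median 0.18) were above 0, with 0 calls, and their part in the members' values was not tested. Without F1 replicate 2, Cox8b passed (2.18, adjusted p = 0.00469), and without replicate 1 the value of Cox7a1 was 0.61 (adjusted p = 0.606). The members with lower values in F1 were Atp5k, with 1998 and 1798 in F1, 3768 and 4650 in B6 and 3345 and 4169 in C3 (-1.05, SE 0.28, adjusted p = 0.263), and Uqcr10 (-0.45, SE 0.17, adjusted p = 0.487). For Atp5k a second probe set gave -0.67 and another 0.34, so its direction is not settled. A further probe set of Cox5b passed (0.61, adjusted p = 0.0481 over all probe sets by limma), while its brightest stood at 0.17. The remaining Cox5b probe sets stood at 0.24, 0.25 and -0.58 and did not pass.

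**Figure D4:**
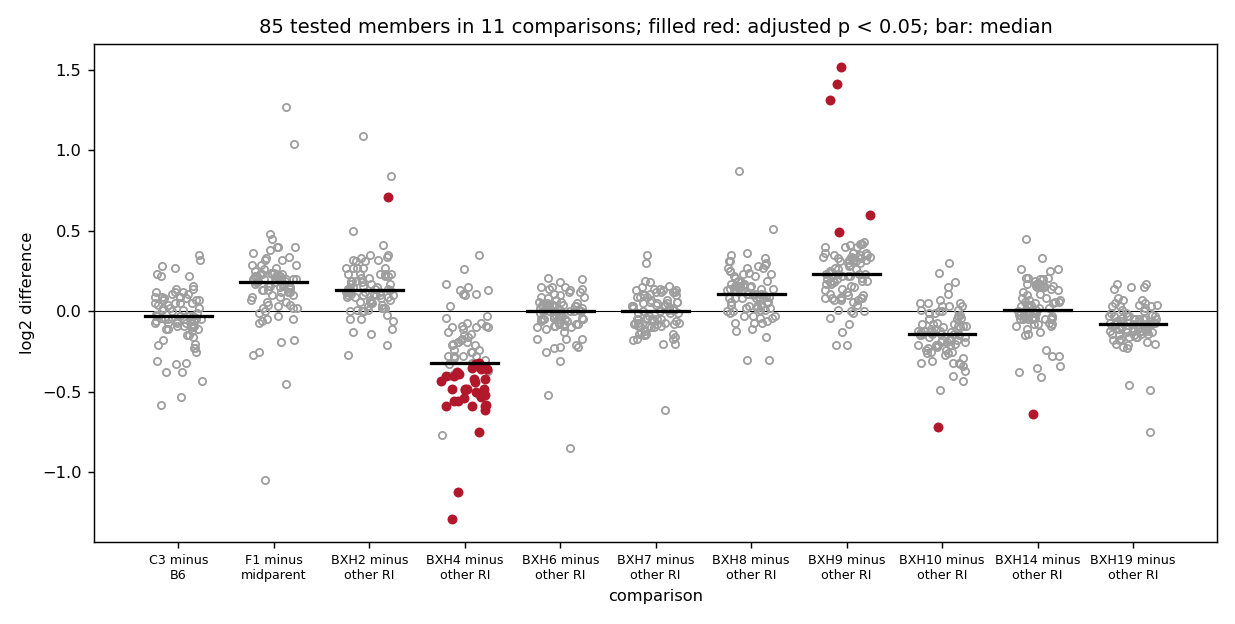
Log2 differences of the 85 tested members in 11 comparisons, each point a gene, filled red where limma's adjusted p was below 0.05, with the median as a bar. BXH4 holds 33 red points, all below 0, BXH9 holds 5 above 0, and the RI comparisons share arrays because each strain is set against the mean of the other 8.

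BXH4 stood apart among the RI strains, with lower signals for subunits of complexes I, III, IV and V. Set against the mean of the other 8 RI strains, 33 of 85 members (38.8%) were lower by limma's adjusted p, beside 4.12% of all genes lower and 3.51% higher, and 0 members were higher. The median difference was -0.32 over the members and 0.01 over all genes, and 75 of the 85 were below 0. In complex I, 14 of 33 were lower (median -0.33), in complex III 5 of 9 (-0.42), in complex IV 7 of 16 (-0.31) and in complex V 6 of 17 (-0.30), and Cycs was lower as well (-0.43). None of the 4 subunits of complex II passed (median 0.08): Sdhb, the iron-sulfur subunit, stood at -0.39 (SE 0.15, adjusted p = 0.129), Sdhc at 0.03, Sdha at 0.13 and Sdhd at 0.26. Further, dimmer probe sets gave -0.61 for Sdhd, -0.04 for Sdhc and 0.15 for Sdha, and none passed. The direction of Sdhd and Sdhc thus depended on the probe set. The 5 assembly factors had 0 calls and a median of -0.14. Without the 3 muscle isoforms, 30 of 82 members were lower (median -0.30).

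**Figure D5:**
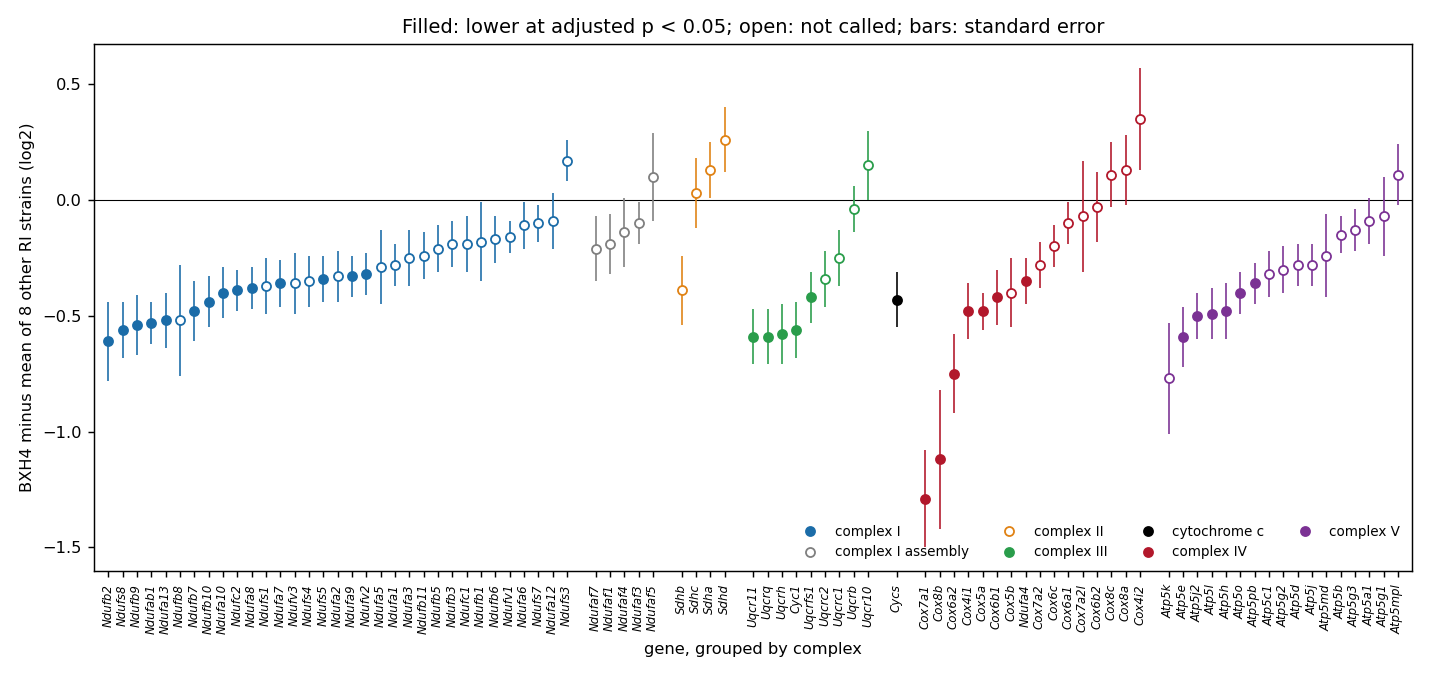
Log2 difference of BXH4 from the mean of the other 8 RI strains for the 85 tested members, grouped by complex and ordered by value; bars are standard errors, and filled points passed as lower. Most members lie between 0 and -0.6, the muscle isoforms Cox7a1 (-1.29), Cox8b (-1.12) and Cox6a2 (-0.75) lie lowest among the filled points, and 3 of 4 subunits of complex II lie above 0.

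Cox7a1 differed by -1.29 (SE 0.21, adjusted p = 0.00135 by limma), Cox6a2 by -0.75 (SE 0.17, 0.0119) and Cox8b by -1.12 (SE 0.30, 0.0277), at the signals given above. Ndufab1 differed by -0.53 (SE 0.09, adjusted p = 0.00175) and Cox5a by -0.48 (SE 0.08, 0.00237), each with both BXH4 arrays below every other array. Uqcr11 differed by -0.59 (SE 0.12, adjusted p = 0.00533), also without overlap. Cox4i1 had 3639.5 and 2823 on the BXH4 arrays, against a lowest of 3796, a median of 4439 and a highest of 5687 on the 16 arrays of the other RI strains (log2 difference -0.48, adjusted p = 0.0182). Both its arrays lay below the others.

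Uqcrq, which sits beside cytochrome b in complex III, had 1219 and 815 on the BXH4 arrays, against a lowest of 1219, a median of 1502 and a highest of 2059.8 on the 16 arrays of the other RI strains (-0.59, SE 0.12, adjusted p = 0.00696). Replicate 2 was far below the others, and replicate 1 lay level with the lowest of them. Uqcrh, the hinge protein that binds cytochrome c1, had 1963 and 1794 on the BXH4 arrays, against a lowest of 2195, a median of 2826 and a highest of 3501 on the 16 arrays of the other RI strains (-0.58, adjusted p = 0.013). Cyc1, cytochrome c1 itself, had 1599 and 1344 on the BXH4 arrays, against a lowest of 1662, a median of 2128 and a highest of 2786 on the 16 arrays of the other RI strains (-0.56, adjusted p = 0.0106). For both genes the BXH4 arrays did not overlap with the rest.

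Ndufs8, an iron-sulfur core subunit of complex I, had 1529 and 1331 on the BXH4 arrays, against a lowest of 1763, a median of 2105 and a highest of 2500 on the 16 arrays of the other RI strains (-0.56, SE 0.12, adjusted p = 0.0101). Its groups did not overlap, and of its 5 further probe sets 4 were below 0 (-0.39 to -0.69) and the other stood at 0.10. Atp5j2 had 3063 and 2704 on the BXH4 arrays, against a lowest of 3369, a median of 4075 and a highest of 5288 on the 16 arrays of the other RI strains (-0.50, SE 0.10, adjusted p = 0.00653), and its other probe set gave -0.52. Atp5e, the epsilon subunit of the central stalk, had 1330.2 and 775 on the BXH4 arrays, against a lowest of 1332, a median of 1535 and a highest of 1819 on the 16 arrays of the other RI strains (-0.59, SE 0.13, adjusted p = 0.0105). Here replicate 2 was much lower than replicate 1, and replicate 1 was level with the lowest of the other strains. Atp5l, of the membrane part, had 1611 and 1501 on the BXH4 arrays, against a lowest of 1943, a median of 2165 and a highest of 2589.6 on the 16 arrays of the other RI strains (-0.49, SE 0.11, adjusted p = 0.0117), again without overlap. The other members called lower ran from -0.61 (Ndufb2) to -0.32 (Ndufv2). Of the 33 members, 16 had 26 further probe sets, of which 24 were below 0 and 11 passed as lower, beside 4.51% of all probe sets.

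Both arrays of BXH4 lay below the lowest of the other 16 RI arrays for 23 of the 85 members (27.1%), against 3.01% of all genes, and both lay above the highest for 0 members, against 3.37% of all genes. The arrays differed in size of effect, with a median difference of -0.23 on replicate 1 (72 of 85 members below the mean of the other strains) and -0.38 on replicate 2 (77 of 85). Without BXH4 replicate 1, 19 members were lower, among 148 lower genes in all. Without replicate 2, 0 members passed as lower, beside 81 genes in all. All 33 stayed below 0 in both fits, but they were chosen for low values on these same arrays, so this is no separate support. Their median was -0.48 with both arrays, -0.57 without replicate 1 and -0.36 without replicate 2. Without replicate 2 Cox6a2 stood at -0.83 and Ndufab1 at -0.49, and Ndufb2 at -0.11, while each such fit has a lone BXH4 array.

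Other genes moved in BXH4 as well. Of 6 tested NK and cytotoxic cell markers, 6 were higher (median 1.46). Ccl5 had 4173 and 3728 in BXH4 against 404 to 861 on all other arrays, and Gzma 3752 and 3078 in BXH4 against 236 to 1537. Of 8 heart muscle markers 8 were below 0 (median -0.69), of which Sln (-0.87, adjusted p = 0.0415) and Actc1 (-0.50, adjusted p = 0.0483) passed, and all 8 had signals above 250 in BXH4. Of 10 skeletal muscle markers 9 were below 0 (median -1.06), of which Eno3 passed (-0.81, adjusted p = 0.0328), and the list stood at 0.25 on replicate 1 and -2.52 on replicate 2. With the heart muscle list as a covariate 9 of the 33 members passed as lower, among 108 genes in all, and with the skeletal muscle list 22, among 220 genes, against 341 genes without a covariate. All 33 stayed below 0, with a median of -0.45 under either covariate against -0.48 without. Because the 33 were chosen for low values on the same arrays, their sign here is no separate support. Of 9 pericyte and smooth muscle markers 1 was lower, Rgs5 (-0.80, adjusted p = 0.0113), and the list ran from -0.80 to 0.61 with a median of -0.07 and 6 of 9 below 0. Of 4 endothelial markers 1 was higher, Tek (0.32, adjusted p = 0.0382), with a median of 0.34. Of 6 tested alveolar type 2 markers 1 was lower, Abca3 (-0.44, adjusted p = 0.0233), with a median of 0.00. The ratios of 3' to 5' control probe sets, which rise as RNA degrades, lay within the range of the other arrays for both BXH4 arrays. They differed between these arrays, with a log2 ratio of 0.13 on replicate 1 and 0.42 on replicate 2 for actin. For Gapdh the ratios were -0.32 and -0.01, and the part of this difference in the result was not tested. None of 5 tested neutrophil markers passed (median 0.73), 1 of 6 macrophage markers was higher (median 0.15), and the 2 tested white fat markers had a median of -1.01 with 0 calls. The part of these other changes in the lower members was not tested beyond the fits with a muscle covariate.

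Other mitochondrial gene lists held fewer calls in BXH4, but except for the regulators of biogenesis most of their genes were also below 0. Of 74 genes of the mitochondrial ribosome, which translates the subunits encoded in the mitochondrion, 8 were lower (median -0.23), beside 4.12% of all genes. Below 0 were 64 of the 74, beside 75 of the 85 members and 48.5% of all genes. Mrps28 stood at -0.56 (adjusted p = 0.0139) and Mrpl48 at -0.44 (0.0232). Of 15 genes of the citric acid cycle, which supplies NADH and succinate, 1 was lower, Sucla2 (-0.37, adjusted p = 0.0233), and 12 were below 0 (median -0.15). Of 19 tested assembly factors outside the rule 1 was lower and 14 were below 0 (median -0.09). Of 7 tested regulators of mitochondrial biogenesis, such as Nrf1, Esrra and Tfam, 0 passed and 2 were below 0 (median 0.07). The difference between these lists and the members was not tested.

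BXH9 stood at the other end. Set against the other 8 RI strains, 5 members (5.88%) were higher, beside 1.24% of all genes, and 0 were lower, beside 0.833% of all genes. They were Cox6a2 (1.31, SE 0.17, adjusted p = 0.000211 by limma), Cox7a1 (1.52, SE 0.21, 0.00048), Cox5a (0.49, SE 0.08, 0.00297), Cycs (0.60, SE 0.12, 0.00745) and Cox8b (1.41, SE 0.30, 0.0147). In all, 41 members had an unadjusted p below 0.05, each with a higher value, beside 15.7% of all genes in either direction, and 77 of 85 were above 0 (median 0.23, against -0.00 over all genes). The medians were 0.23 in complex I, 0.11 in complex II, 0.31 in complex III, 0.24 in complex IV and 0.30 in complex V. Of 15 citric acid cycle genes 2 were higher and 13 above 0 (median 0.17). Of 74 mitochondrial ribosome genes 0 were higher and 56 above 0 (median 0.11). Of 7 regulators of mitochondrial biogenesis 0 were higher and 2 above 0 (median -0.02). On these arrays 5 of 10 skeletal muscle and 2 of 8 heart muscle markers were higher, with Nppa, an atrial hormone, at 8715 and 143. Without BXH9 replicate 1, among members Cox6a2 alone was called (1.34, adjusted p = 0.0127), while Cox7a1 stood at 1.43, Cox8b at 1.60, Cycs at 0.57 and Cox5a at 0.49. Without replicate 2 Cox6a2 and Cox7a1 were called, and Cox8b stood at 1.23. BXH9 replicate 1 had the highest log2 ratio of 3' to 5' actin control probe sets of the 24 arrays, 0.64, followed by 0.50 on BXH14 replicate 2, and its part in the result was not tested. With the skeletal muscle covariate Cox6a2 (1.58) and Cox7a1 (1.45) passed, among 33 higher genes in all against 103 without a covariate, while Cox8b stood at 1.55, Cycs at 0.44 and Cox5a at 0.33. With the heart muscle covariate Cox6a2 (1.13), Cox7a1 (1.31) and Cox5a (0.51, adjusted p = 0.0472) passed, among 32 genes, while Cox8b stood at 1.47 and Cycs at 0.56.

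In the remaining RI strains single members passed. Cox6a2 was higher in BXH2, at 2251 and 1708 on the BXH2 arrays, against a lowest of 723, a median of 1093 and a highest of 2912 on the 16 arrays of the other RI strains (0.71, SE 0.17, adjusted p = 0.0421 by limma, beside 0.58% of all genes higher). The BXH9 arrays lay above both BXH2 arrays and BXH8 replicate 1 lay between them. Of 24 fits without 1 array, 11 ended this call, and the value without BXH2 replicate 1 was 0.51. Median centring, no filter and no mean-variance trend also ended it, as did the heart muscle covariate (0.60, adjusted p = 0.163 by limma). With the skeletal muscle covariate it passed (0.94, adjusted p = 0.0304). The skeletal and heart muscle lists had strain means of 1.89 and 0.51 in BXH2. The same gene was lower in BXH10, at 723 and 892 on the BXH10 arrays, against a lowest of 746, a median of 1217 and a highest of 2912 on the 16 arrays of the other RI strains (-0.72, SE 0.17, adjusted p = 0.0302, beside 0.761% of all genes lower). Leaving out either BXH10 array ended this call, at -0.57 without replicate 1 and -0.87 without replicate 2. The heart muscle covariate also ended it (-0.64, adjusted p = 0.0862 by limma), and the skeletal muscle covariate did not (-0.77, 0.0114). Uqcr10, a small subunit of complex III, was lower in BXH14, at 1189 and 1145 on the BXH14 arrays, against a lowest of 1437, a median of 1889 and a highest of 2544 on the 16 arrays of the other RI strains (-0.64, SE 0.15, adjusted p = 0.0334, beside 0.713% of all genes lower). Both BXH14 arrays lay below the others, but leaving out either one ended the call at nearly the same value (-0.67 with adjusted p = 0.346, and -0.62 with 0.155), and with the mean of its probe sets it stood at -0.27 (0.446). In BXH6, BXH7, BXH8 and BXH19, 0 members passed, beside 1.94%, 1.29%, 1.39% and 1.22% of all genes, with medians of -0.00, -0.00, 0.11 and -0.08, and 3, 0, 11 and 4 members had an unadjusted p below 0.05, as did 12.3%, 10.7%, 10.5% and 11.3% of all genes.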

How the data were processed

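Signals of 22690 probe sets on 24 arrays were taken from the authors' deposited value table as linear intensity. All arrays had been scaled to nearly equal means by the authors, as the deposited values show, and the software is not given in the sources used here. Probe sets annotated with 1 symbol (20380) were kept and 1 per gene was chosen, the brightest by mean log2(signal + 16). Genes among the brightest 60% of probe sets were tested. A linear model with 12 strain groups was fitted to all 8280 genes with limma 3.58.1 in R 4.3.3 (eBayes with a mean-variance trend, 12 residual degrees of freedom), and p-values were adjusted by Benjamini-Hochberg within each comparison. Each RI strain was set against the mean of the other 8, so these comparisons share arrays. The labels name no batch or scan date. The small number of arrays limits the precision. Same-numbered arrays did not deviate together in all strains. Over 66 pairs of strains the correlation ran from -0.30 to 0.34 with a median of -0.00, and 22 pairs were over 0.1. The numbers thus gave no pairing common to all strains, and pairing among some strains was not tested.

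Members and lists were chosen with earlier results of these data known. Genes named are up to 12 members of smallest p between the 12 strains, up to 10 per comparison (the 3 of smallest p where none passed), the widest and narrowest range per complex, the isoforms and selected subunits, and from other lists those of smallest p. Ndufc2, Uqcrh, Ndufv2 and the mitochondrial ribosome genes beyond this rule were named after their values were seen.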

Additional observations from a re-analysis of the deposited data

How the results depend on the processing

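None of the log2 differences recomputed (the members called in an RI strain and those of smallest p in the progenitor and hybrid comparisons) changed sign. These members were chosen by their values in the main fit on the same arrays, so a kept sign is no separate support. The alternatives planned were offsets of 1 and 64, median centring, quantile normalization, the top 40% of probe sets or no filter, the mean of a gene's probe sets, no mean-variance trend, fewer arrays, a replicate block and a skeletal muscle covariate. The heart muscle covariate, leaving out both arrays of BXH4 or BXH9, and counting BXH4 and BXH9 separately were chosen after seeing the data. Between 12 strains the 15 calls became 5 with the skeletal muscle covariate and 6 with the heart muscle covariate. Between 9 RI strains the 14 became 5 and 6 with these covariates, 6 without both BXH4 arrays and 8 without both BXH9 arrays. Over all RI comparisons the 34 distinct members called (41 calls) became 11 members with the heart muscle covariate. In BXH4 the 33 became 9 with it, while lower genes overall went from 341 to 108 and all 33 members stayed below 0, with a median of -0.45 against -0.48. In BXH9 the 5 became 10 with the mean of probe sets, 2 with the skeletal muscle covariate and 3 with the heart muscle covariate. Leaving out 1 array in turn gave 11 to 18 calls between 12 strains, 7 to 20 between 9 RI strains, 0 to 0 in C3 minus B6, 0 to 1 in F1 minus its progenitors, 8 to 37 distinct members over the RI comparisons, 0 to 35 in BXH4 and 1 to 8 in BXH9. A lone remaining array was assumed to vary like the other strains. With the replicate block the counts were 18, 16, 0, 0, 32, 31 and 5 in the same order, although the numbers gave no pairing common to all strains. The causes of these changes were not tested.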
